A study of Mus musculus with 12 samples.

Results

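tRF-3a are short fragments cut from the 3′ end of a mature tRNA, from the T loop to the terminal CCA. The fragments described here are the tRF-3a of nuclear tRNAs other than leucine tRNAs, taken as every distinct sequence of the deposited table that was listed as tRF-3a under at least 1 mature nuclear tRNA that does not decode leucine. There were 1261 such sequences among the 87699 in the table, and they held 29167 of 1705883 reads (1.71%). They were sorted by the isodecoders, named by amino acid and anticodon, under which they were listed. This gave 54 sets, of which 34 held 1 isodecoder and 20 held several isodecoders with the same end.

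The libraries held RNAs of 14 to 40 nt from livers of male B6D2F1/Crl mice aged 8 to 12 weeks. NS-KO mice carried a constitutive Cas9-made deletion in NSun2, present in all cells and bred by heterozygous mating, and WT mice were wild type. Livers of each genotype were taken without injury (D0) and on day 3 (D3) and day 27 (D27) of injury by carbon tetrachloride (CCl4), given intraperitoneally as 40% CCl4 in corn oil at 2 mL/kg, once for acute and repeatedly for long-term injury. Each of the 6 groups held 2 libraries, which the study's methods call independent biological replicates and the sample labels only number, so p-values measure the spread between these libraries. NS-KO libraries held 46937 to 221446 reads and WT libraries 81515 to 275568 reads, with 1103 to 2547 and 2386 to 3765 reads of the fragments described. The files hold tRNA reads only, so the loss of NSun2 and the liver identity of the samples could not be checked in them. In RNA of whole liver, fewer cells with a fragment and fewer copies per cell cannot be told apart.

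NSun2 is an RNA methyltransferase that methylates cytosines where the variable loop meets the T arm in many tRNAs, and at the wobble base of Leu-CAA tRNA. That junction lies upstream of the bases kept in a tRF-3a, so these fragments do not contain it. Their own CCA end is added to the tRNA after transcription by a nucleotidyltransferase, and the T loop holds an adenine that is methylated in many mature tRNAs. tRF-3a are known as small RNAs that can be bound by Argonaute proteins, which read the seed, bases 2 to 8 from the 5′ end, against their targets.

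The sequences with the most reads are shown because 5 isodecoder sets made up most of the pool. Each is named by the first tRNA it was listed under and its length, is written as DNA, and carries the CCA end in capitals.
Ala-CGC-1 18 nt: tccccggcatctccaCCA
Tyr-GTA-1 17 nt: tccggctcgaaggaCCA
Tyr-GTA-2 18 nt: ttccggctcgaaggaCCA
Tyr-GTA-1 18 nt: atccggctcgaaggaCCA
Gln-CTG-2 17 nt: tctcggtggaacctCCA
Gln-CTG-2 18 nt: atctcggtggaacctCCA
Gln-CTG-1 17 nt: tctcggtgggacctCCA
Gln-CTG-1 18 nt: atctcggtgggacctCCA
Gly-ACC-1 17 nt: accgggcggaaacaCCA
Gly-ACC-1 18 nt: aaccgggcggaaacaCCA
Ala-AGC-2 18 nt: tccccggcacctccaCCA
Thr-TGT-2 17 nt: tctcgctggggcctCCA
Ala-CGC-1 18 nt led with 2644 reads (9.07% of the pool), followed by Tyr-GTA-1 17 nt with 2605 (8.93%), Tyr-GTA-2 18 nt with 1679, Gln-CTG-2 17 nt with 1642 and Gly-ACC-1 17 nt with 1589. Tyr-GTA-1 17 nt was shared by 5 tyrosine tRNAs. The next base upstream told some of them apart, as Tyr-GTA-2 18 nt, from 2 tRNAs, and Tyr-GTA-1 18 nt, from 1, differed by T1A. Positions are counted from 1 at the 5′ end, and the base of the first named fragment comes first. Gly-ACC-1 17 nt was listed under 1 glycine and 5 valine tRNAs, so a glycine and a valine origin cannot be told apart. The fragments Gln-CTG-2 17 nt and Gln-CTG-1 17 nt differed only by A10G. Gln-CTG-2 17 nt was listed under 1 tRNA and Gln-CTG-1 17 nt under 8 with the anticodons CTG and TTG.

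In the mouse build GRCm38 the tRNAs behind the main fragments lie on several chromosomes, and the fragments cover the 3′ end of these non-coding genes except for the CCA. Gln-CTG-2-1 lies on the RefSeq gene n-TQctg9 at chr9:64738046-64738117 and Gly-ACC-1-1 on n-TGacc1 at chr11:48823728-48823801. Tyr-GTA-1-1 lies on n-TYgta3 at chr13:23425646-23425734, Tyr-GTA-2-1 on n-TYgta9 at chr5:30888083-30888171 and Ala-CGC-1-1 on n-TAcgc9 at chr13:21254220-21254291. Of the 278 mature nuclear tRNAs in the table, 204 lay exactly on a tRNA gene of RefSeq.

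Among the pool, 117 sequences matched a tRNA end without mismatch and held 21990 reads (75.4%). The other 1144 sequences differed from a tRNA at 1 base and held 7177 reads. The mismatch fell on the last base in 3953 of these reads (55.1%) and on the base before it in 9.91%. All but 3 sequences (1258 of 1261) ended at the last base of the tRNA. Most were rare, as 546 sequences had 1 read in all, and 211 sequences with at least 10 reads held 26796 reads. NS-KO D27 replicate 1 and WT D27 replicate 2 stood apart in the last base, with 14.2% and 12.4% of reads ending in CCG in place of CCA, against 2.47% to 5.23% in the other 10 libraries.

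Only 2 lengths occurred. The 537 sequences of 17 nt held 13510 reads and the 724 of 18 nt held 15657. Exact reads covered 54 of the 162 different 17 nt ends that the tRNAs allow and 63 of the 172 ends of 18 nt. In the structures given with the tRNAs, 53 of the 54 exact 17 nt ends consisted of 1 unpaired T-loop base, 12 paired bases and 4 unpaired bases at the 3′ end. Of the 63 ends of 18 nt, 62 started 1 base further into the loop. The 3′ strand of the T stem and that of the acceptor stem were thus kept whole. The T-loop adenine named above lies just upstream of an 18 nt start. The tRNA base before the start was A for 61 of the 63 ends of 18 nt, with 11754 of 11845 exact reads, and for 22 of the 54 ends of 17 nt, with 5890 of 10145 exact reads. Exact 17 nt reads began with T in 7326 cases, with A in 1668, with C in 1112 and with G in 39, and exact 18 nt reads with T in 5907 cases, with A in 5260, with C in 551 and with G in 127.

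The exact sequences carried 79 different seeds, and a few seeds held most reads. The seed TCCGGCT was shared by 4 tyrosine fragments with 3330 reads, and CCCCGGC by Ala-CGC-1 18 nt and Ala-AGC-2 18 nt with 3315 reads. These alanine fragments differ by T10C, outside the seed. The glutamine fragments of 17 nt shared CTCGGTG (2738 reads) and those of 18 nt TCTCGGT (1663 reads), so that 1 base of length changes the seed. GC content over exact reads was 64.8%.

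Tyrosine, alanine, glutamine and glycine or valine tRNAs supplied most of the pool. Tyr-GTA gave 27.0% of all reads of the pool, Ala-CGC/Ala-TGC 12.8%, Gln-CTG 11.5%, Gly-ACC/Val-AAC/Val-CAC 10.96% and Gln-CTG/Gln-TTG 7.79%, together 70.0%. Thr-TGT (3.96%), Cys-GCA (3.96%), Ala-AGC/Ala-TGC (3.31%), Phe-GAA/Ser-GGA (3.22%), Ala-AGC (1.96%), Trp-CCA (1.66%) and Pro-AGG/Pro-CGG/Pro-TGG (1.59%) brought the sum over 12 sets to 89.7%. Of the 50 isodecoders other than leucine, Ala-GGC, Cys-ACA, His-ATG, Pro-GGG, SeC-TCA, Sup-TTA and Val-GAC had no tRF-3a read.

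Some isodecoders rich in tRF-3a had few 5′ fragments, which start at the first base of the tRNA, and others had many. The counts here are reads listed under an isodecoder, and a read listed under several isodecoders counts for each. Gly-GCC had 248 tRF-3a reads beside 670815 reads of 5′ fragments, Gly-CCC 336 beside 617203, and Glu-CTC 19 beside 112992. Tyr-GTA had 7873 tRF-3a reads beside 747 of 5′ fragments, Gln-CTG 5624 beside 329, Gly-ACC 3197 beside 914 and Phe-GAA 941 beside 4. Val-CAC, Val-AAC and Ala-CGC had both, with 3324, 3318 and 3812 tRF-3a reads beside 41799, 42236 and 9477 of 5′ fragments. Asp-GTC had 1 tRF-3a read and 424 of 5′ fragments.

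The level of the whole pool depended on what it was set against. As a share of all reads, tRF-3a made up 2.15% and 2.45% on D0, 1.15% and 1.21% on D3 and 2.35% and 2.49% on D27 in NS-KO livers, against 1.39% and 2.24%, 4.62% and 1.84%, and 1.82% and 0.866% in WT livers on the same days. The genotypes overlapped on this scale, and NS-KO was the higher one at D27 and the lower one at D3. The 5′ class tRF-5c took 12.5% to 30.4% of all reads in NS-KO libraries and 35.6% to 71.5% in WT libraries (35.6% in WT D3 replicate 1, at least 60.9% in the other 5), and shares of all reads depend on it. As a share of reads outside tRF-5c, tRF-3a made up 2.55% and 2.80% on D0, 1.65% and 1.48% on D3 and 3.12% and 2.93% on D27 in NS-KO livers, against 4.87% and 6.28%, 7.17% and 4.79%, and 4.65% and 2.85% in WT livers. On that scale every NS-KO library lay below both WT libraries of its day at D0 and D3, and at D27 1 WT library lay below both NS-KO libraries.

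**Figure D1:**
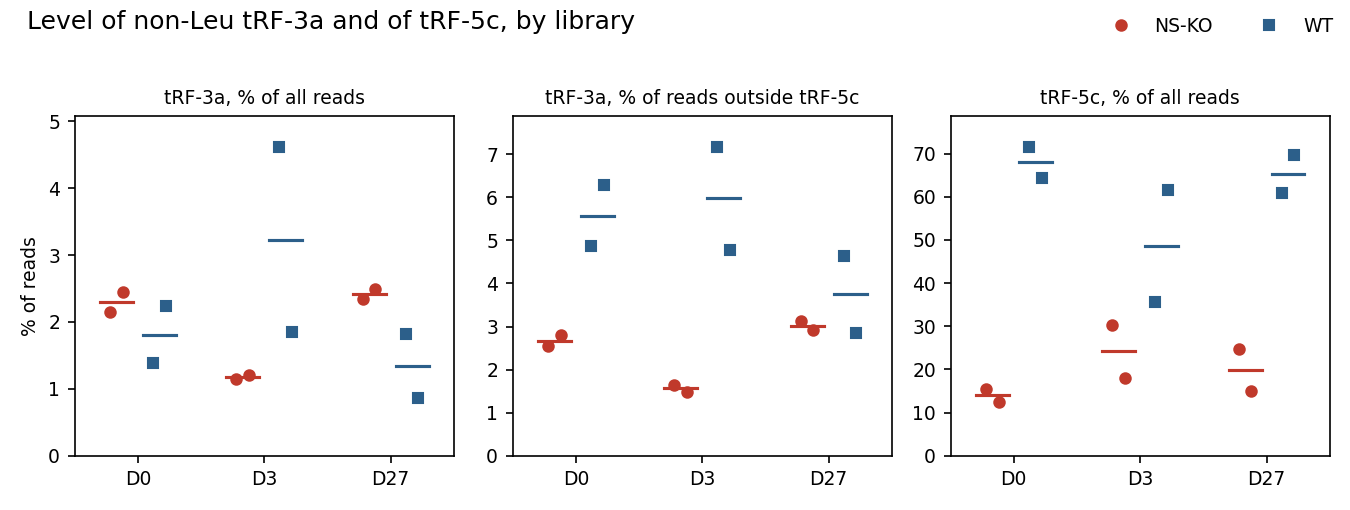
Share of tRF-3a reads of nuclear tRNAs other than leucine among all reads (left) and among reads outside tRF-5c (middle), and share of tRF-5c among all reads (right), in % of reads. Each point is 1 library, NS-KO left of WT on each day, and lines are means of 2 libraries: tRF-5c lies at 12.5% to 30.4% in NS-KO and 35.6% to 71.5% in WT, without overlap.

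Which tRNAs supplied the pool differed by genotype for a few sets, which needs no scaling between libraries. At D3, 43.2% and 51.6% of the pool in NS-KO livers came from Tyr-GTA, against 25.0% and 25.4% in WT livers. At D27 it was 37.0% and 28.2% in NS-KO livers against 21.3% and 20.7% in WT livers, and at D0 25.6% and 19.1% against 19.4% and 24.6%. The tyrosine share was thus above both WT libraries at D3 and D27, and the genotypes overlapped at D0.

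The set Gly-ACC/Val-AAC/Val-CAC made up 9.76% and 7.84% of the pool on D0, 5.89% and 5.05% on D3 and 8.98% and 7.54% on D27 in NS-KO livers, against 13.9% and 14.1%, 12.5% and 13.4%, and 9.91% and 11.4% in WT livers. Gln-CTG/Gln-TTG made up 5.77% and 4.62%, 5.46% and 4.08%, and 4.53% and 5.93% in NS-KO livers, against 9.65% and 8.66%, 9.35% and 9.32%, and 8.39% and 8.42% in WT livers. Both sets were lower in each of the 6 NS-KO libraries than in any WT library. Trp-CCA, the tryptophan set, went the other way, with 2.23% and 3.57% on D0, 2.39% and 1.62% on D3 and 2.99% and 3.07% on D27 in NS-KO livers, against 1.33% and 0.858%, 1.54% and 1.29%, and 1.37% and 1.01% in WT livers. These 3 were the sets without overlap among 23 with at least 100 reads. Taken as shares of nuclear tRF-3a and tRF-3b reads, the same 3 stood apart among 31 tested sums (1 higher, 2 lower), where 17.8% of all 281 sums of the table were higher and 1.42% lower without overlap. For counting error alone, the widest 95% exact binomial interval of a library was 34.1% to 39.9% for Tyr-GTA and 2.57% to 4.81% for Trp-CCA.

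**Figure D2:**
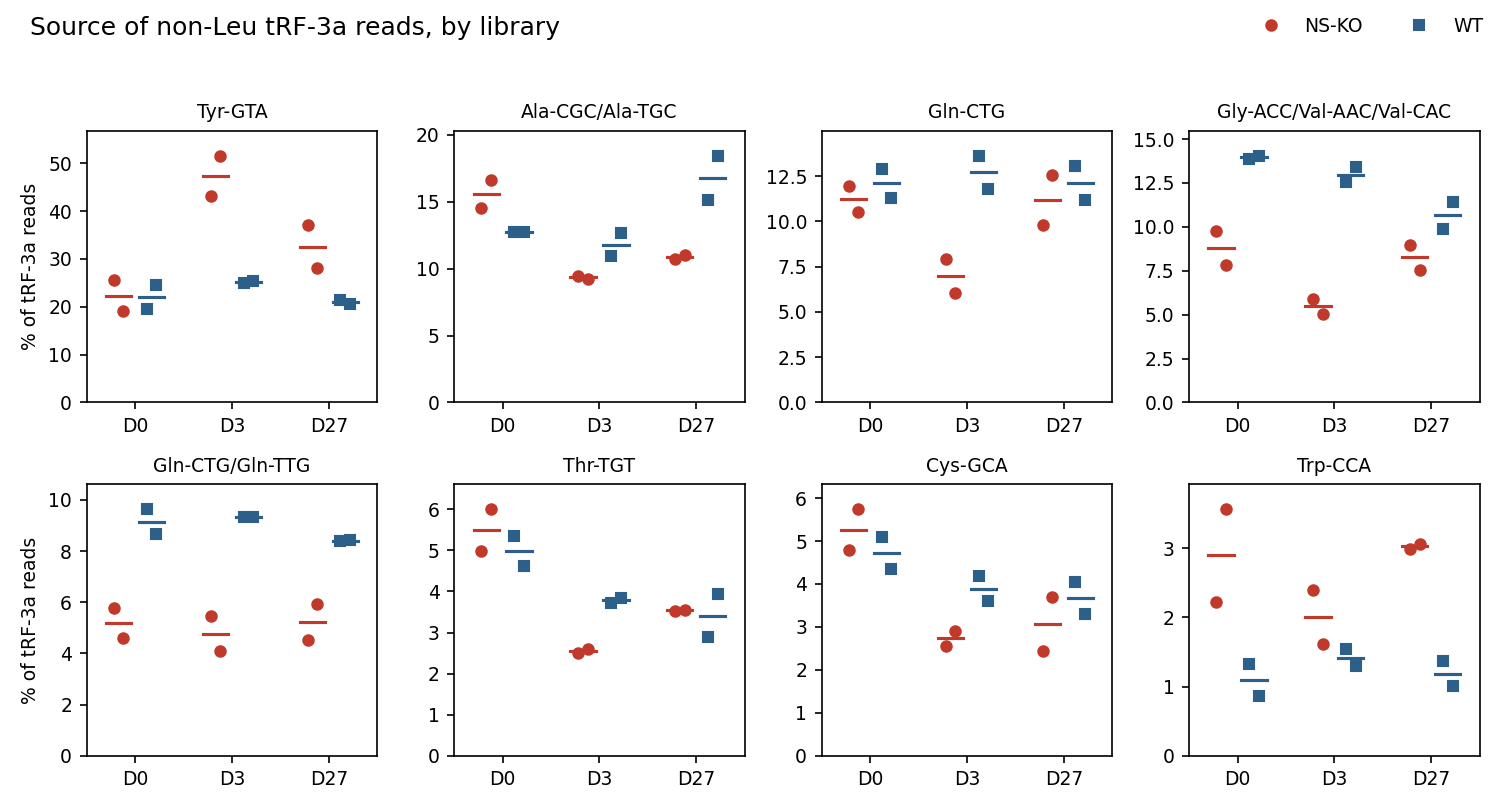
Share of the non-leucine tRF-3a reads of a library that came from each of 8 isodecoder sets, in %, on D0, D3 and D27. Points are libraries, NS-KO left of WT, and lines are means of 2 libraries: Gly-ACC/Val-AAC/Val-CAC and Gln-CTG/Gln-TTG lie lower and Trp-CCA higher in all 6 NS-KO libraries, and Tyr-GTA reaches 51.6% in NS-KO at D3.

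For a test across the table, reads were summed by subtype and isodecoder set, scaled by TMM factors and fitted with limma, and p-values were adjusted over all 281 sums (Benjamini-Hochberg). Of the 54 tRF-3a sets, 31 had enough reads to be tested, with 28898 of the 29167 reads, and the other 23 sets share the rest. Averaged over the 3 days, 16 of the 31 sums were lower in NS-KO than in WT and 0 were higher at an adjusted p of 0.05 (20 lower and 0 higher unadjusted), where 18.1% of all sums were lower and 18.9% higher. The median log2 fold change was -0.73 over the 31 tRF-3a sums and 0.10 over all 281. Of the 31, 24 reached the level the filter asks for in at least 2 libraries of each genotype, and 13 of these were lower. Another 3 (Glu-TTC, Gly-TCC and Ala-AGC/Ala-CGC/Ala-TGC) reached it in WT alone and were all lower, and 3 reached it in NS-KO alone, with 0 called. A set that enters through its higher group is likely to differ, so these calls are given as a description.

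Glutamine and glycine or valine ends changed most among the abundant sets. Levels are given as adjusted CPM, counts scaled to a common library total with the TMM factors. Gly-ACC/Val-AAC/Val-CAC stood at 1485 and 1074 adjusted CPM on D0, 860 and 549 on D3 and 1214 and 1126 on D27 in NS-KO livers, against 3954 and 3950, 3782 and 3670, and 2198 and 2075 in WT livers. On this scale no NS-KO library reached the lowest WT library. The log2 fold change over days was -1.63 (SE 0.17, adjusted p = 0.00016), a level 3.11-fold lower in NS-KO. By library size alone it was -0.75 (limma adjusted p = 0.0337). Gln-CTG/Gln-TTG stood at 877 and 632, 796 and 443, and 613 and 886 adjusted CPM in NS-KO livers, against 2749 and 2434, 2821 and 2554, and 1863 and 1533 in WT livers. Its groups did not overlap on this scale either, and its log2 fold change was -1.70 (SE 0.20, adjusted p = 0.000207). By library size alone it was -0.82 (limma adjusted p = 0.0232). Gln-CTG, whose main source is Gln-CTG-2, stood at 1813 and 1444, 1157 and 655, and 1325 and 1876 adjusted CPM in NS-KO livers, against 3676 and 3173, 4111 and 3231, and 2900 and 2037 in WT livers. It fell by 1.24 on the log2 scale (SE 0.20, adjusted p = 0.00114). By library size alone its log2 fold change was -0.36 and did not pass (limma adjusted p = 0.329).

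The alanine ends were lower as well, and the tyrosine ends did not pass the test. Ala-CGC/Ala-TGC stood at 2212 and 2279 adjusted CPM on D0, 1375 and 1006.5 on D3 and 1447 and 1647 on D27 in NS-KO livers, against 3630 and 3577, 3294 and 3470, and 3360 and 3357 in WT livers. On this scale the WT libraries lay within a narrow range and above all NS-KO libraries (log2 fold change -1.10, SE 0.15, adjusted p = 0.000471). The log2 fold change of Ala-CGC/Ala-TGC was -0.21 by library size alone (limma adjusted p = 0.562). It was -0.32 by totals of nuclear tRF-3a and tRF-3b reads (adjusted p = 0.0411) and -1.29 by reads outside tRF-5c (adjusted p = 0.000135). Tyr-GTA, the most abundant set, stood at 3896 and 2613, 6303 and 5610, and 5005 and 4211 adjusted CPM in NS-KO livers, against 5538 and 6913, 7549 and 6970, and 4732 and 3761 in WT livers. Its groups overlapped, at a log2 fold change of -0.37 (SE 0.17, adjusted p = 0.113). Ala-AGC (-0.50, adjusted p = 0.0853), Trp-CCA (0.19, adjusted p = 0.566) and Pro-AGG/Pro-CGG/Pro-TGG (-0.10, adjusted p = 0.837) did not pass either.

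Among sets with fewer reads, the glutamate set Glu-TTC gave 4, 3, 5, 3, 4 and 1 reads in the NS-KO libraries, against 22, 13, 33, 27, 17 and 5 in the WT libraries, in the order D0, D3, D27. Its fitted log2 fold change was -1.72 (SE 0.32, adjusted p = 0.00231). Gly-TCC gave 1, 0, 8, 2, 1 and 4 reads in NS-KO libraries, against 11, 15, 9, 12, 13 and 9 in WT libraries (fitted log2 fold change -1.64, SE 0.29, adjusted p = 0.00163). Both sets entered the test through WT libraries, and at 0 to 8 reads a library in NS-KO the fitted size depends on the prior count. In the fit with no filter beyond 1 read their adjusted p-values were 0.00547 for Glu-TTC and 0.0047 for Gly-TCC. Gly-TCC did not overlap between genotypes after scaling, while for Glu-TTC WT D27 replicate 2, at 38.1 adjusted CPM, lay within the NS-KO range of 10.4 to 49.1. Ser-GCT gave 7, 4, 6, 1, 3 and 7 reads in NS-KO libraries, against 26, 25, 29, 25, 8 and 10 in WT libraries (-1.52, SE 0.26, adjusted p = 0.00149). The other sums that passed had log2 fold changes between -1.24 (Phe-GAA/Ser-GGA, adjusted p = 0.0018) and -0.66 (Ser-AGA/Ser-TGA, adjusted p = 0.0286). They included Ile-AAT (-1.12), Gly-CCC/Gly-GCC (-1.12), Cys-GCA (-1.07), Thr-TGT (-0.98) and Ala-AGC/Ala-TGC (-0.93).

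The size of these differences depended on the scaling between libraries. The TMM factors mostly fell as library totals rose, from 1.79 in NS-KO D0 replicate 2 (46937 reads) to 0.476 in WT D27 replicate 2 (275568 reads). The totals times these factors, by which counts were divided, thus came out nearly alike in the WT libraries, whose read totals ran from 81515 to 275568. Adjusted CPM of WT libraries therefore follow their read counts closely, and the difference in depth between them was largely not removed. Separation and narrow ranges on this scale carry that limit. Of the 31 sums, 29 were below 0 by TMM factors and 30 by reads outside tRF-5c, but 15 by library size alone and 17 by totals of nuclear tRF-3a and tRF-3b reads, and 15 were below 0 under all 4. By library size alone the median over all sums was 0.84, with 51.2% of all sums higher and 6.41% lower, and 4 of the tRF-3a sums were lower and 1 higher. By reads outside tRF-5c 16 were lower and 0 higher, where 23.8% of all sums were lower and 13.2% higher. The sums called lower under all 4 scalings were Gln-CTG/Gln-TTG and Gly-ACC/Val-AAC/Val-CAC, beside Glu-TTC and Gly-TCC, which passed the filter in WT alone. By totals of nuclear tRF-3a and tRF-3b reads, 8 sums were lower and 3 higher, where 7.47% of all sums were lower and 55.5% higher. There Gln-CTG/Gln-TTG had a log2 fold change of -0.92 (adjusted p = 0.00028) and Gly-ACC/Val-AAC/Val-CAC of -0.85 (adjusted p = 0.000336). Trp-CCA was 0.94 (adjusted p = 0.00225), Asn-GTT 0.65 and Tyr-GTA 0.42 (both adjusted p = 0.0402).

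**Figure D3:**
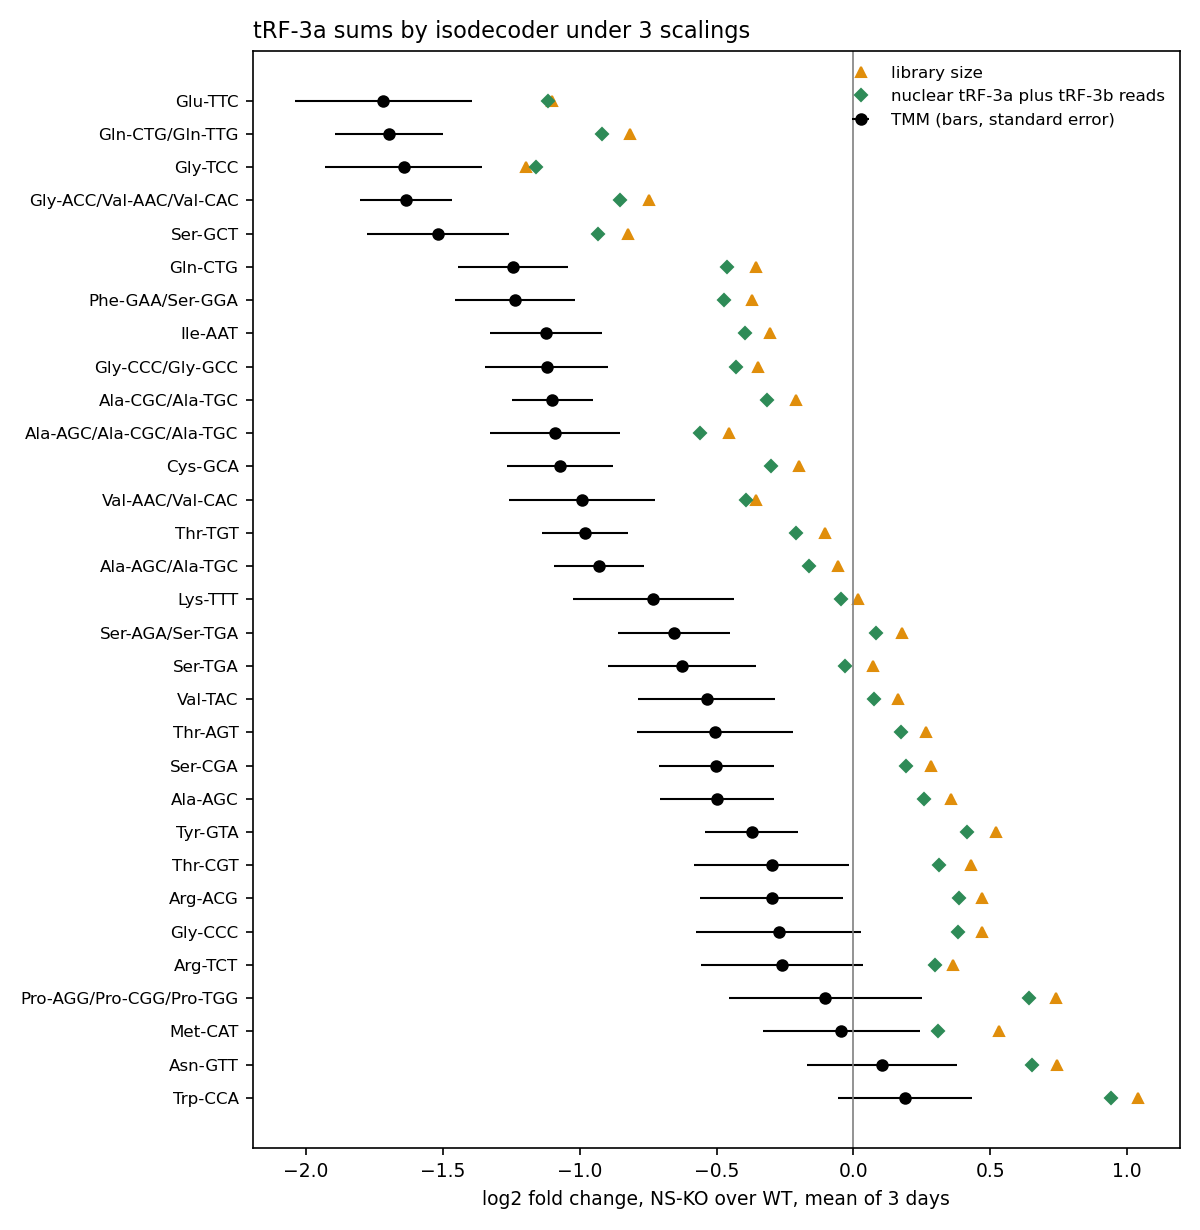
Log2 fold change, NS-KO over WT, mean of 3 days, of each of the 31 tested tRF-3a sums. Black points are the values with TMM factors and bars their standard error, and triangles and diamonds are the values by library size and by totals of nuclear tRF-3a and tRF-3b reads: 29, 15 and 17 sums lie left of 0 under these scalings.

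The difference between genotypes was tested on each day as well. At D0, 5 sums were lower and 0 higher in NS-KO (4.27% lower and 1.07% higher of all sums), namely Gly-TCC (adjusted p = 0.0191, at 1 and 0 reads in NS-KO against 11 and 15 in WT), Val-AAC/Val-CAC (-1.99, 0.0400), Gln-CTG/Gln-TTG (-1.77, 0.0170), Gly-ACC/Val-AAC/Val-CAC (-1.63, 0.0170) and Ile-AAT (-1.41, 0.0469). At D3, 15 were lower and 0 higher (8.9% lower and 16.7% higher of all sums), led, among sets past the filter in both genotypes, by Ser-GCT (-2.72), Gly-ACC/Val-AAC/Val-CAC (-2.41), Gln-CTG/Gln-TTG (-2.14) and Gln-CTG (-2.04). By totals of nuclear tRF-3a and tRF-3b reads it was 5 lower and 2 higher at D3, where 2.85% of all sums were lower and 44.5% higher. At D27, Ala-CGC/Ala-TGC (-1.11, adjusted p = 0.0281) was the only one lower and 0 were higher (5.34% lower and 1.42% higher of all sums). It was not called by reads outside tRF-5c or with no filter beyond 1 read. The call was also lost when any single D0 or D27 library was left out, not only NS-KO D27 replicate 1 or WT D27 replicate 2, the libraries rich in CCG ends. No D0 call was left when any 1 of the 4 D0 libraries was left out, and by library size 3 sums were higher at D27 and 0 lower (41.3% higher and 3.56% lower of all sums).

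Injury moved few sums within a genotype. In NS-KO livers, D3 against D0 gave 4 lower and 1 higher tRF-3a sum, where 3.91% of all sums were lower and 15.7% higher. Thr-TGT (-1.25, adjusted p = 0.00791), Ala-AGC/Ala-TGC (-1.24, 0.0110), Cys-GCA (-1.10, 0.0415) and Ala-CGC/Ala-TGC (-0.92, 0.0267) were lower at D3, and Val-AAC/Val-CAC (1.54, 0.0396) was higher. Tyr-GTA was 0.89 (adjusted p = 0.0557). Without NS-KO D0 replicate 2 none of these was called, and by library size 10 sums were lower and 0 higher (10.7% lower and 9.61% higher of all sums). No tRF-3a sum passed at D27 against D0 in NS-KO (2 higher and 2 lower unadjusted), where 0.356% of all sums were lower and 0.0% higher. In WT livers none passed at D3 (0 unadjusted) or at D27 (0 higher and 5 lower unadjusted) against D0, where 0.356% and 0.0% of all sums were higher and 0.0% lower on both days. The difference between genotypes in the change from D0 to D3 passed for none of the 31 tRF-3a sums by limma (0 higher and 4 lower unadjusted), where 10.7% of all sums differed upward and 1.78% downward, though by library size alone 10 differed downward (18.1% downward and 4.98% upward of all sums). For the change to D27 it was 0 of 31 (2 higher and 0 lower unadjusted) and 0.0% of all sums. These contrasts share the D0 libraries.

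Leucine tRF-3a and the longer 3′ fragments of the same tRNAs, tRF-3b, are the classes most like the ones described. Over days 3 of 3 leucine tRF-3a sums were lower in NS-KO, with a median log2 fold change of -0.95. Of 18 tRF-3b sums of tRNAs other than leucine 3 were lower and 1 higher, with a median of 0.35. Taken over all days, the part of leucine tRNAs in nuclear tRF-3a overlapped between genotypes. Other tRNAs gave 83.7% to 90.6% of tRF-3a reads in NS-KO libraries and 82.5% to 86.4% in WT libraries. Within D0 and within D27 the genotypes overlapped as well. At D3 they did not, with 88.7% and 90.6% from other tRNAs in NS-KO livers against 84.8% and 83.6% in WT livers.

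Among single fragments, 436 of the 1261 sequences had 20 CPM or more somewhere in the 12 libraries and were tested among 22065 such sequences. In the smallest libraries, NS-KO D0 replicate 2 (46937 reads) and NS-KO D27 replicate 1 (46973 reads), 1 read is enough to reach this level. Larger libraries need more reads. Over days 35 of the 436 were lower in NS-KO and 0 higher, where 2.12% of all sequences were lower and 3.93% higher. By library size alone 4 were lower and 0 higher (0.938% lower and 4.42% higher of all), and by totals of nuclear tRF-3a and tRF-3b reads 12 were lower and 1 higher (1.18% lower and 7.38% higher of all). At D3 it was 25 lower and 0 higher (0.53% lower and 9.98% higher of all). At D0 and at D27 limma called 0, as it did among all sequences (0.0%), while 56 were lower and 2 higher at D0 and 33 lower and 13 higher at D27 at an unadjusted p of 0.05. The count over days rested on which libraries were used, at 90 (56 lower, 34 higher) without NS-KO D27 replicate 2, 84 (49 lower, 35 higher) without NS-KO D0 replicate 1 and 12 to 23 lower without WT D0 replicate 1 or 2, WT D3 replicate 1 or 2 or WT D27 replicate 2.

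The largest fall among the fragments called was that of Gly-ACC-1 18 nt. It stood at 219 and 143 adjusted CPM on D0, 143 and 49.3 on D3 and 209 and 219 on D27 in NS-KO livers, against 958 and 1019, 938 and 1016, and 499 and 565 in WT livers (log2 fold change -2.30, SE 0.32, adjusted p = 0.0070). The 17 nt form stood at 927 and 609, 476 and 345, and 699 and 605 adjusted CPM in NS-KO livers, against 2031 and 1905, 1731 and 1723, and 1130 and 801 in WT livers. As CPM by library size alone, the median of the 17 nt form was 1048 in NS-KO and 1073 in WT libraries. That of the 18 nt form was 283 and 574, and the genotypes overlapped for both. By TMM factors the 17 nt form fell by 1.32 (limma adjusted p = 0.0152), so that on that scale both lengths of this end were lower and the longer one more so. The glutamine ends were the other way round. Gln-CTG-2 17 nt stood at 787 and 668, 418 and 296, and 429 and 657 adjusted CPM in NS-KO livers, against 2070 and 1882, 1875 and 1562, and 1614 and 1068 in WT livers (log2 fold change -1.64, SE 0.26, adjusted p = 0.0080). Gln-CTG-2 18 nt, 1 base longer, stood at 697 and 489, 499 and 225, and 564 and 719 adjusted CPM in NS-KO livers, against 896 and 754, 1258 and 854, and 702 and 404 in WT livers, and did not pass (-0.60, adjusted p = 0.322). Gln-CTG-1 17 nt fell by 1.96 (adjusted p = 0.0092) and Gln-CTG-1 18 nt by 1.27 (adjusted p = 0.0300).

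Of the other abundant fragments, Ala-CGC-1 18 nt fell by 1.16 by TMM factors (limma adjusted p = 0.0096). As CPM by library size alone, its median was 1657 in NS-KO and 1819 in WT libraries, and the genotypes overlapped. Tyr-GTA-1 17 nt (-0.64, adjusted p = 0.102), Tyr-GTA-2 18 nt (-0.49, 0.310), Tyr-GTA-1 18 nt (0.09, 0.845), Ala-AGC-2 18 nt (-0.86, 0.109) and Thr-TGT-2 17 nt (-0.82, 0.119) did not pass. The 3 fragments below are shown because they were among the 5 with the largest falls past the threshold, beside Gly-ACC-1 18 nt and Gln-CTG-1 17 nt, and the last 3 bases are again in capitals.
Ser-GCT-2 18 nt: atcccatcctcgtcgCCA
Glu-TTC-1 18 nt: ctcccggtgtgggaaCCA
Gln-CTG-2 17 nt CCT: tctcggtggaacctCCT
Ser-GCT-2 18 nt, with 93 reads, fell by 1.83 (adjusted p = 0.0146). Glu-TTC-1 18 nt, with 98 reads, fell by 1.79 (adjusted p = 0.0153). Gln-CTG-2 17 nt CCT, with 94 reads, is Gln-CTG-2 17 nt with a T read at the last base and fell by 1.82 (adjusted p = 0.0180). In this order the 3 stood at 0.0 to 49.8, 7.04 to 35.8 and 0.0 to 31.3 adjusted CPM in NS-KO libraries. In WT libraries they stood at 39.0 to 154, 22.9 to 176 and 46.7 to 192. These are few reads a library in NS-KO, so the fitted sizes depend on the prior count.

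The choice between 17 and 18 nt differed from set to set. Over all libraries 91.6% of exact Ala-CGC/Ala-TGC reads and 88.7% of Ser-GCT reads were 18 nt long, and every exact Glu-TTC read was, against 29.3% for Thr-TGT, 13.2% for Phe-GAA/Ser-GGA and 2.63% for Lys-TTT. Over the whole pool the share of 18 nt was 53.8% to 61.1% in NS-KO libraries and 48.5% to 56.0% in WT libraries. It was higher in NS-KO by 3.30 percentage points (two-sided exact permutation of genotype within days, p = 0.0463, adjusted p = 0.0926 over 4 measures), which does not pass. It passed with perfect matches only, at 3.63 percentage points (exact adjusted p = 0.0417), and without Ala-CGC-1 18 nt, at 4.43 (exact adjusted p = 0.037). The smallest p that this design allows is 0.00926.

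Glutamine and glycine or valine ends moved in opposite directions within this measure, which is a ratio of reads within a set and needs no scaling. Gln-CTG reads were 18 nt long in 47.0% and 41.8% on D0, 54.4% and 43.2% on D3 and 56.8% and 52.3% on D27 in NS-KO livers, against 30.2% and 28.6%, 40.2% and 35.2%, and 30.2% and 27.3% in WT livers. The share was 17.3 percentage points higher in NS-KO, with no overlap (exact p = 0.00926, adjusted p = 0.0278 over 9 sets). Gly-ACC/Val-AAC/Val-CAC reads were 18 nt long in 19.1% and 19.0%, 23.1% and 12.5%, and 23.0% and 26.6% in NS-KO livers, against 32.0% and 34.8%, 35.1% and 37.1%, and 30.6% and 41.3% in WT livers. The difference was -14.6 percentage points, again with no overlap (exact p = 0.00926, adjusted p = 0.0278). Gln-CTG/Gln-TTG, which differs from Gln-CTG at 1 base, had 36.6% and 46.7%, 47.8% and 55.3%, and 56.8% and 44.4% in NS-KO livers, against 31.1% and 33.1%, 41.1% and 46.7%, and 33.3% and 31.8% in WT livers. It was 11.8 percentage points higher in NS-KO (exact p = 0.00926, adjusted p = 0.0278).

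Of the other 6 sets in this family, Ala-CGC/Ala-TGC was 4.46 percentage points lower in NS-KO, at 88.4% ± 2.81 in NS-KO libraries, against 92.9% ± 0.971 in WT libraries (SD, n = 6 each, exact adjusted p = 0.0417). Tyr-GTA, at 60.8% ± 5.69 in NS-KO libraries and 53.9% ± 6.02 in WT libraries, did not pass (exact adjusted p = 0.0694), nor did Thr-TGT (0.0952), Ala-AGC/Ala-TGC (0.509) and the leucine sets Leu-AAG/Leu-TAG (0.509) and Leu-CAA/Leu-CAG (difference -6.91 percentage points, exact adjusted p = 0.05, at the threshold). Over all leucine tRF-3a reads the share of 18 nt was 80.8% to 86.1% in NS-KO libraries and 86.6% to 91.9% in WT libraries, without overlap, a difference that was not tested. Each set had at least 20 exact reads in every library, and the 95% exact binomial intervals of single libraries reached 31.8% to 55.3% for Gln-CTG and 10.2% to 30.9% for Gly-ACC/Val-AAC/Val-CAC. Without WT D3 replicate 1 the exact adjusted p was 0.0556 for Gln-CTG, Gln-CTG/Gln-TTG and Gly-ACC/Val-AAC/Val-CAC, which no longer passed. With each of the 12 libraries left out in turn, the differences were 15.4 to 19.1, 9.71 to 13.8 and -16.4 to -12.8 percentage points. Gln-CTG also lost it without NS-KO D3 replicate 1 and Gln-CTG/Gln-TTG without WT D0 replicate 1, and Ala-CGC/Ala-TGC in 6 of 12.

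**Figure D4:**
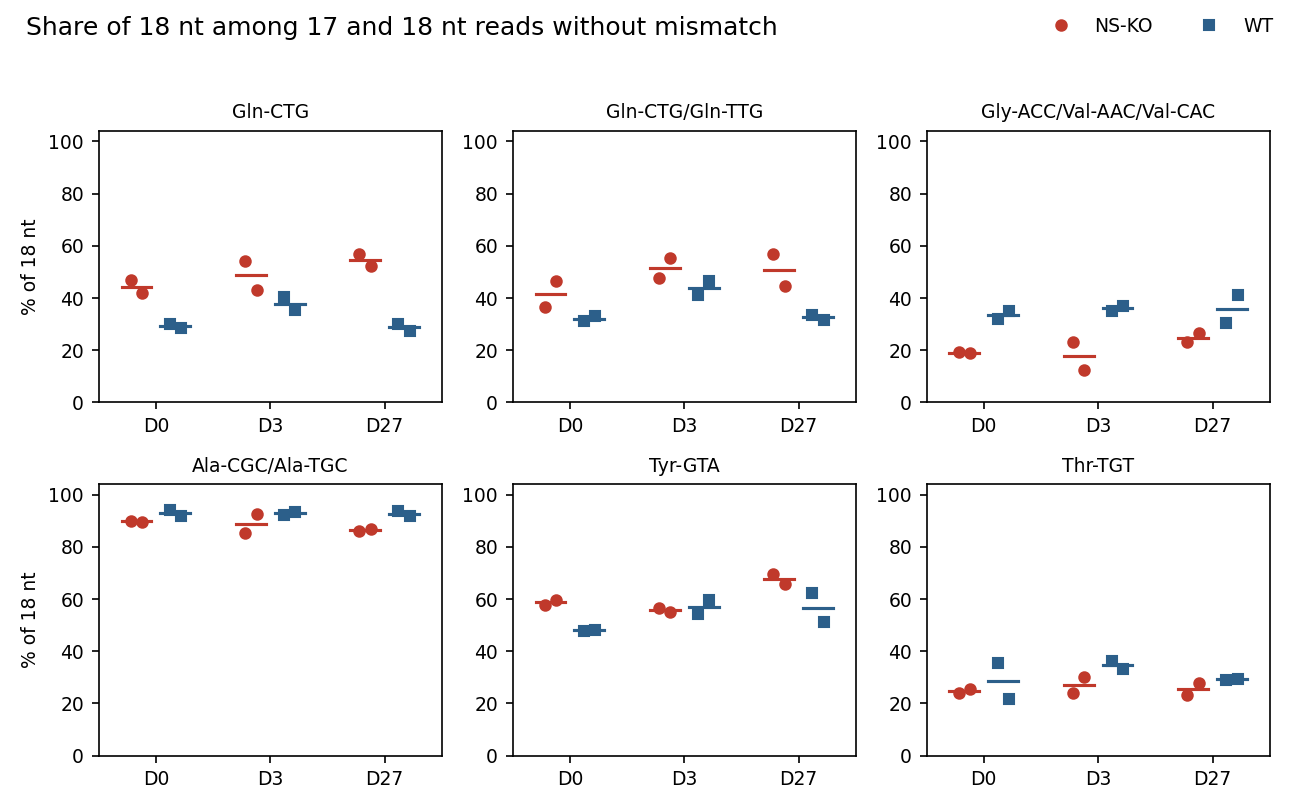
Share of 18 nt among exact 17 and 18 nt reads of 6 isodecoder sets, in %, on D0, D3 and D27. Points are libraries, NS-KO left of WT, and lines are means of 2 libraries: Gln-CTG lies higher and Gly-ACC/Val-AAC/Val-CAC lower in all 6 NS-KO libraries.

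The 3′ fragments of these tRNAs were less often of the short class in NS-KO. tRF-3a made up 81.7% and 81.2% of tRF-3a plus tRF-3b reads on D0, 80.3% and 86.1% on D3 and 74.9% and 73.7% on D27 in NS-KO livers, against 91.4% and 92.1%, 89.5% and 87.5%, and 83.8% and 85.9% in WT livers. Every NS-KO library lay below both WT libraries of its day. NS-KO libraries averaged 79.7% ± 4.62 and WT libraries 88.4% ± 3.25 (SD, n = 6 each), a difference of -8.70 percentage points (exact p = 0.00926, the smallest possible, adjusted p = 0.037 over 4 measures). Leaving out NS-KO D3 replicate 1, WT D3 replicate 1 or WT D3 replicate 2 gave -7.73, -8.37 and -9.04 percentage points, which no longer passed. With sequences of a single isodecoder only it was -7.87 and did not pass (exact adjusted p = 0.0741). Without both libraries rich in CCG ends it was -8.57, in a design where 1 measure alone cannot pass.

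By amino acid, the difference was found in 5 of 13 sets other than leucine at an adjusted p of 0.05 over 14 sets. Glutamate ends stood farthest apart, with tRF-3a at 9.43% and 10.5% on D0, 6.12% and 9.62% on D3 and 6.56% and 3.75% on D27 in NS-KO livers, against 55.6% and 36.1%, 26.8% and 26.1%, and 20.2% and 12.0% in WT livers (-21.8 percentage points). Glutamine ends were at 89.1% and 87.0%, 84.0% and 94.0%, and 76.3% and 78.5% in NS-KO livers, against 93.3% and 94.7%, 98.2% and 95.1%, and 95.2% and 96.3% in WT livers (-10.6). Alanine ends were at 79.9% and 76.6%, 70.4% and 75.3%, and 66.9% and 73.0% in NS-KO livers, against 91.3% and 91.1%, 83.1% and 83.8%, and 79.5% and 84.8% in WT livers (-11.9). Glutamate did not overlap between genotypes over the 3 days, though its highest NS-KO share (10.5%) lay close to its lowest WT share (12.0%). Its shares rest on few reads, at 36 to 138 tRF-3a plus tRF-3b reads a library and at most 5 Glu-TTC tRF-3a reads in an NS-KO library. For counting error alone, its widest 95% exact binomial interval of a library was 20.8% to 53.8%. Glutamine and alanine did not overlap within any day.

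The shared glycine and valine ends were at 84.4% to 94.9% in NS-KO libraries and 96.6% to 97.9% in WT libraries (-7.29), without overlap. These 4 sets had the smallest possible exact p and an adjusted p of 0.0259, as did leucine (-5.53), and threonine passed at 0.0432 (-6.06). Tryptophan (-8.81, adjusted p = 0.0556), tyrosine (-2.55, 0.081), cysteine (-3.07, 0.0864) and arginine (-16.4, 0.0907) did not pass. The calls for alanine and glutamate held in each of 12 fits without 1 library. Glutamine lost the threshold without NS-KO D3 replicate 1 (0.0519) or WT D3 replicate 1 (0.0648), glycine/valine without WT D0 replicate 1 (0.0519), and threonine in 6 of 12.

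**Figure D5:**
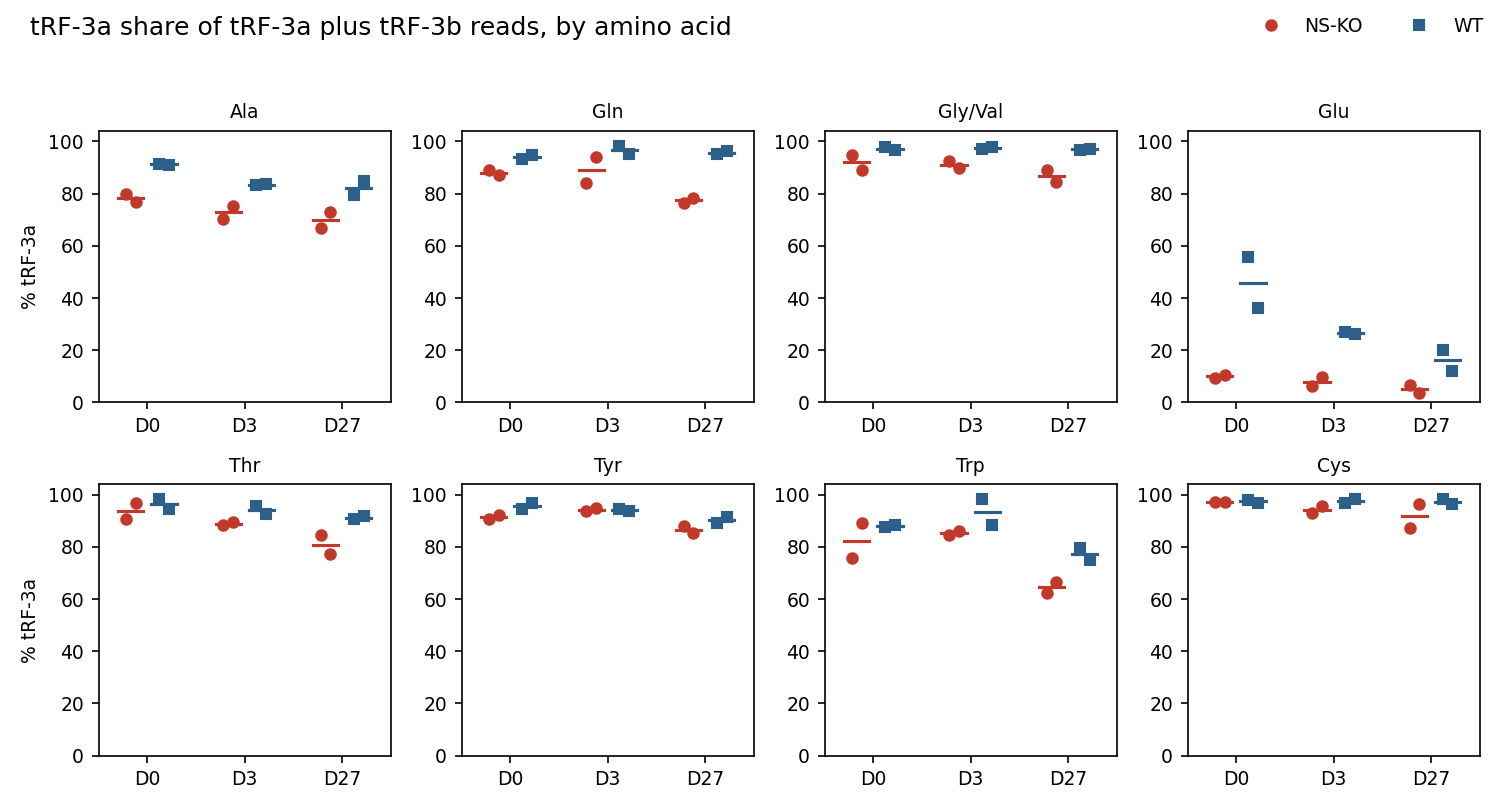
Share of tRF-3a among tRF-3a plus tRF-3b reads by amino acid, in %, on D0, D3 and D27. Points are libraries, NS-KO left of WT, and lines are means of 2 libraries: glutamate lies at 3.75% to 10.5% in NS-KO and 12.0% to 55.6% in WT.

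The 3′ terminus itself did not differ between genotypes beyond the spread of libraries. Reads ending in CCA made up 77.7% to 87.4% in NS-KO libraries and 78.0% to 85.8% in WT libraries, a difference of 0.28 percentage points (exact p = 0.796, adjusted p = 0.907). Reads without mismatch made up 70.3% to 77.8% in NS-KO libraries and 70.2% to 77.9% in WT libraries, a difference of -0.34 (exact p = 0.907, adjusted p = 0.907).

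Other methyltransferases act on some of these tRNAs. NSUN6 methylates a cytosine at the acceptor end of cysteine and threonine tRNAs, within the tRF-3a. Over days 2 of the 4 tested sums of these tRNAs were lower (Cys-GCA and Thr-TGT) and 0 higher, with a median log2 fold change of -0.74, beside -0.73 over all 31 tRF-3a sums and with 18.1% of all sums lower and 18.9% higher. By library size and by totals of nuclear tRF-3a and tRF-3b reads 0 of the 4 were called. DNMT2 methylates an anticodon-loop cytosine of Asp-GTC, Gly-GCC and Val-AAC tRNAs, outside the tRF-3a. Of 3 tested sums 3 were lower, with a median of -1.12, and each also holds reads of other isodecoders. By library size and by totals of nuclear tRF-3a and tRF-3b reads 1 of the 3 was called, Gly-ACC/Val-AAC/Val-CAC. Of the 24 sums of the remaining tRNAs 11 were lower and 0 higher, with a median of -0.64. At D3 the medians were -1.54, -0.95 and -1.21.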

How the data were processed

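Livers of NS-KO and WT mice at D0, D3 and D27 were profiled by small RNA sequencing, with 2 libraries per group. Per the study's methods and the labels, RNA was deacylated, freed of cyclic phosphates, phosphorylated at the 5′ end and demethylated at methylated adenines and cytosines before adapter ligation, and products of 14 to 40 nt were selected. The authors checked reads with FastQC, trimmed them with cutadapt and aligned them with Bowtie to mature and then precursor tRNAs, allowing 1 mismatch. Versions of these tools are not given in the sources used here. The deposited values are whole-number read counts per sequence and library, not normalized (listed as other units because of text lines in the table), and a sequence listed under several tRNAs was used 1 time only. Because each aligned read may carry 1 mismatch, near-identical tRNAs can exchange reads.

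Reads were summed by subtype and isodecoder set. Log2 CPM with a prior count of 2 and TMM factors (0.788 to 1.79 in NS-KO and 0.476 to 1.53 in WT) from all sequences was tested in R 4.3.3 with limma 3.58.1 (trend, 1 mean per group, 6 residual degrees of freedom) on 281 sums (10 reads or more in all and, in at least 2 libraries, the CPM of 10 reads at the median library total), and on 22065 sequences with a CPM of at least 20 in 1 library. The count test named in the study's methods was not run. Shares were compared by two-sided exact permutation of genotype within days (scipy 1.17.1, numpy 2.4.6, pandas 2.3.3 and Python 3.11.15; figures with matplotlib 3.10.9). Binomial intervals are exact (95%) and cover counting error only, since reads carry no molecular identifiers. Fits and permutation were tested on simulated data. The simulated counts followed library totals, with TMM factors from sequences past the filter of the sums. This simulation therefore does not test TMM factors taken from all sequences. Isodecoder sums were named as the 12 with the most reads and the 10 with the largest change past an adjusted p of 0.05, and fragments as the 12 with the most reads and up to 5 at each end past it; 0 rose. Others named were chosen after their values were seen. Members and lists, including tRNAs of NSUN6 and DNMT2, were chosen with earlier results of these data known. Sequences come from the deposited table, and gene spans from RefSeq on GRCm38.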

Additional observations from a re-analysis of the deposited data

Results flagged for a closer look

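In the share of the pool that came from alanine ends, the genotypes moved apart between D0 and D27. The change from D0 to D27 in Ala-CGC/Ala-TGC was lower in NS-KO than in WT, with a difference of -8.79 percentage points, as every NS-KO library at D27 (10.7% and 11.03%) lay below both at D0 (14.5% and 16.6%) and every WT library at D27 (15.1% and 18.4%) above both at D0 (12.7% each). For Ala-AGC/Ala-TGC the same difference was -3.11 percentage points. The difference in shares was not tested in either case. The fitted difference in the change of adjusted CPM, another measure of the same sets, was -0.43 for Ala-CGC/Ala-TGC (adjusted p = 0.793) and -0.66 for Ala-AGC/Ala-TGC (adjusted p = 0.639) by limma, and neither passed.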

How the results depend on the processing

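The direction of the named sums over days held for every set under every setting except Tyr-GTA, Ala-AGC and Pro-AGG/Pro-CGG/Pro-TGG, and reads per library limit the sets with few reads and every single-day count. By library size alone the calls were 5 over days (1 higher), 2 at D0 (1 higher), 3 at D27 (all higher), 10 for D3 against D0 in NS-KO, 10 for the difference between genotypes in the change from D0 to D3, and, for single fragments, 4 over days and 14 at D3. By this scaling the log2 fold changes of Tyr-GTA (0.52), Ala-AGC (0.36), Pro-AGG/Pro-CGG/Pro-TGG (0.74), Tyr-GTA-1 17 nt (0.24), Tyr-GTA-2 18 nt (0.39), Gln-CTG-2 18 nt (0.27), Ala-AGC-2 18 nt (0.0011) and Thr-TGT-2 17 nt (0.032) changed sign. By totals of nuclear tRF-3a and tRF-3b reads, calls were 7 at D3 (2 higher), 3 at D27 (1 higher), and, for fragments, 13 over days and 11 at D3, and Tyr-GTA (0.42), Ala-AGC (0.26), Pro-AGG/Pro-CGG/Pro-TGG (0.64), Tyr-GTA-1 17 nt (0.14), Tyr-GTA-2 18 nt (0.29) and Gln-CTG-2 18 nt (0.17) changed sign. By reads outside tRF-5c it was 0 at D27, 10 for D3 against D0 in NS-KO, 1 fragment at D27, and Tyr-GTA-1 18 nt was -0.094. Voom weights gave 3 at D0 and, for fragments, 68 over days, 12 at D0, 62 at D3 and 8 at D27. No filter gave 0 at D0 and at D27, 2 for D3 against D0 in NS-KO and 11 fragments over days, a minimum of 100 reads 2 at D27, the filter of the sums 9 fragments at D0 and 4 at D27, and a prior count of 0.5 gave 3 at D27. With only sequences of a single isodecoder (21 sums) calls were 7 over days, 1 at D0, 9 at D3, 0 at D27, 3 for D3 against D0 in NS-KO, 11 fragments over days and 12 at D3, and the tRF-3a share was -7.87 (exact adjusted p = 0.0741). With perfect matches it was 3 at D0, 19 fragments over days, and the share of 18 nt passed at 3.63 points (exact adjusted p = 0.0417). Without Ala-CGC-1 18 nt that share was 4.43 (exact adjusted p = 0.037) and the share without mismatch 0.17. Settings chosen after seeing the data were TMM factors from the sums (11 at D0, 4 at D27) and leaving out both libraries rich in CCG ends. The latter gave Pro-AGG/Pro-CGG/Pro-TGG 0.0069, Tyr-GTA-1 18 nt -0.042, Ala-AGC/Ala-TGC 18 nt share 0.53 and tRF-3a share -8.57, where 1 share alone cannot pass. Reads with a mismatch or perfect matches only, also added, kept the passing calls of the 18 nt and tRF-3a shares. With the replicate number as a block, calls were 17 over days, 3 at D0, 15 at D3, 1 at D27, 3 for D3 against D0 in NS-KO and, for fragments, 27 over days and 23 at D3. Same-numbered libraries deviated together, at a correlation above 0.1, in 4 of 15 pairs (correlations -0.303 to 0.497). The labels do not say whether the numbers pair libraries, and this was not tested. Leaving out 1 library gave 15 to 17 calls over days, 0 to 7 at D0, 11 to 16 at D3, 0 to 4 at D27 and 0 to 5 for D3 against D0 in NS-KO. For fragments it gave 12 to 90 over days, 0 to 49 at D0 (49 without NS-KO D0 replicate 1), 8 to 36 at D3 (8 without WT D3 replicate 1, 10 without NS-KO D3 replicate 2) and 0 to 58 at D27 (58 without NS-KO D27 replicate 2). The shares ranged over -1.07 to 1.64 (CCA ends), 2.85 to 3.75 (18 nt), -1.61 to 0.94 (no mismatch) and -9.67 to -7.73 (tRF-3a), Pro-AGG/Pro-CGG/Pro-TGG over -0.39 to 0.17, Tyr-GTA-1 18 nt over -0.020 to 0.20 and the Phe/Ser tRF-3a share over -0.12 to 0.32. The cause of these changes was not tested.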

Other observations

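The libraries with more CCG ends, NS-KO D27 replicate 1 and WT D27 replicate 2, were also the highest for leucine tRF-3a, with 11.6% and 10.2% ending in CCG against 0.625% to 4.92% in the other 10. For tRF-3b of other tRNAs they had 12.7% and 7.12%, and the value of WT D27 replicate 2 was there close to those of WT D0 replicate 2 (6.47%) and WT D3 replicate 1 (6.09%). Within isodecoder sets the share of CCG ends in these libraries was 16.9% and 13.2% for Tyr-GTA, 14.4% and 10.9% for Ala-CGC/Ala-TGC, 25.9% and 17.7% for Cys-GCA and 5.56% and 11.6% for Gln-CTG. Reads ending in CCT made up 3.45% to 7.18% of the pool in NS-KO libraries and 5.24% to 6.40% in WT libraries, and those ending in CCC 2.36% to 5.14% in NS-KO and 2.18% to 2.93% in WT.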
